A study of Mus musculus with 15 samples.

Results

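A set of 9 genes that take part in cell fusion, in osteoclast formation and in bone resorption was followed in mouse bone marrow-derived macrophages (BMDMs). The genes were Dcstamp, Ocstamp, Siglec15, Tnfrsf11a, Nfatc1, Acp5, Ctsk, Atp6v0d2 and Cdh1, and all 9 were found by symbol among the 53465 genes of the count matrix. They were chosen by name with measured values of these libraries in view, and which values those were is not recorded. The changes from control to IL-4 and from IL-4 to IL-4/IL-6 were taken as used, so that the values of the 9 genes there, and in IL-13 over control with its shared control libraries, are a description without a test. IL-13/IL-6 against IL-13 was tested for them, but whether its values were also in view is not known, so its p-values are not independent evidence on a set of genes chosen for them.

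Macrophages and osteoclasts arise from the same myeloid precursors, and both can fuse into multinucleated cells. In the osteoclast lineage, the cytokine RANKL binds its receptor RANK on M-CSF-dependent precursors, the transcription factor NFATc1 is induced, and genes of fusion, acid secretion and matrix digestion follow. IL-4 and IL-13 are known to drive macrophages toward multinucleated giant cells, which use part of the same fusion machinery, while IL-4 is also known to restrain osteoclast formation.

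BMDMs were grown for 7 days from bone marrow with M-CSF (20 ng/ml), and according to the methods of the study the marrow came from mice at 8 to 12 weeks of age. For 24 h they received no cytokine (control), 10 ng/ml of IL-4, 40 ng/ml of IL-13, or either of these together with 40 ng/ml of IL-6 (IL-4/IL-6 and IL-13/IL-6). RNAseq gave 3 libraries in each of these 5 groups, and no library with IL-6 alone was analysed here. The study calls its replicates biological, while the labels do not say whether they came from separate animals or cultures, so the p-values measure the spread between these libraries.

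Total counts per library were between 17001352 and 18918686. The addition of the cytokines was visible in Socs3, a gene raised by IL-6 through STAT3, which in normalized CPM (counts scaled to library size with TMM factors, mean of 3) went from 1.69 to 128.7 when IL-6 was added to IL-4 and from 1.27 to 106.9 when it was added to IL-13. Retnla had 0 counts in the control libraries. Against a floor of 3 counts per library, its level was at least 4454-fold higher with IL-4 and 312.6-fold higher with IL-13, and it fell on co-addition of IL-6, with log2 fold changes of -0.87 and -1.14. Chil3 rose with IL-4, with a log2 fold change of 1.63, and had a log2 fold change of 0.10 with IL-13 (adjusted p = 0.207, edgeR). Unlike Retnla, it rose on co-addition of IL-6, with log2 fold changes of 1.49 with IL-4 and 0.90 with IL-13. Of 7 macrophage markers, all 7 reached 1 CPM in every group, and their summed level was between 10857 and 20817.5 CPM. Mertk, 1 of them, had a mean of 142.5 CPM in control and means between 8.27 and 17.9 CPM in the other groups. By group means, Csf1r and Lyz2 were also highest in control, Adgre1 and Cd68 were lowest there, and Itgam and Fcgr1 were neither. The control libraries also stood apart from the others in markers of other cells. In control, 7 of 8 granulocyte markers reached 1 CPM and their summed level was 460.2 to 546.8 CPM, whereas the range over the 12 cytokine-treated libraries was 0.979 to 2.14 CPM. The stromal list (16.0 to 20.2 CPM, from Col1a1 and Col1a2), the basophil and mast cell list (10.6 to 12.6 CPM) and the dendritic cell list (21.5 to 22.4 CPM) were likewise highest in control, with 0 to 0.230, 0 to 0.221 and 1.06 to 3.38 CPM in the other libraries. Of the dendritic cell list, Cd207 went the other way, with 0.496 CPM in control but 2.35 with IL-4 and 1.98 with IL-13. The summed levels of B cell markers were 4.43 to 5.10 CPM in control and 0.155 to 0.901 CPM elsewhere, and those of T cell markers were at most 0.280 CPM. The megakaryocyte list did not follow this order as a whole. Its summed level was 205.9 to 233.8 CPM in control and 344.9 to 417.1 CPM in IL-13/IL-6. Of its 3 genes, Itga2b and Gp9 had means of 114 and 9.87 CPM in control, and at most 1.72 and 0.142 CPM in the other groups, whereas Pf4 had 97.4 CPM in control. The part of these cells in any difference from control was not tested, and in bulk RNA fewer cells of a type cannot be told apart from less RNA per cell. In the comparisons of co-addition of IL-6, which do not use the control libraries, the granulocyte sums were 1.11 to 1.498 CPM with IL-4 alone and 0.979 to 1.47 CPM with IL-6 added, and 1.55 to 2.14 CPM in IL-13 and 1.45 to 1.95 CPM in IL-13/IL-6. Pf4 had 68.7 CPM in IL-4 but 234.8 with IL-6 added, and 75.5 and 390.1 CPM in IL-13 and IL-13/IL-6, while Itga2b (1.47 to 1.72 CPM) and Gp9 (0.0386 to 0.142 CPM) stayed low in these 4 groups. The macrophage sums, of which Lyz2 made up the most, were lower with IL-6, at 10857 to 12651.9 CPM beside 14205.7 to 14681.5 with IL-4 alone, and at 13705.3 to 14596.8 CPM beside 16822.3 to 19500.7 with IL-13 alone. Lyz2 went from 9698 to 6852 CPM with IL-4 as base and from 12745 to 8692 with IL-13, whereas Adgre1 went from 883.5 to 1288 and from 940.6 to 1454, and Fcgr1 from 100.7 to 216.6 and from 188.4 to 478.7. The part of these cells in the results was not tested.

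Genes known from mature osteoclasts were not all present. Calcr, the calcitonin receptor gene, had 0 counts in all 15 libraries, and Oscar, which encodes an osteoclast immunoreceptor, had at most 4. Others were well measured, with means in control of 16.9 CPM for the gelatinase gene Mmp9, 146.3 for Itgb3 and 45.2 for Ctsk. Tnfsf11, the RANKL gene, had at most 1 count in any library and Tnfrsf11b, which encodes its decoy receptor, at most 2. The 9 genes are accordingly described by their roles, and no cell type is named from them.

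Per gene length, the 9 genes spanned a wide range of levels. By FPKM, Atp6v0d2 was the most abundant of them in each group, with group means from 80.7 in IL-13/IL-6 to 202.3 in IL-4. Ctsk followed with 26.1 to 33.9 FPKM, and Acp5, Tnfrsf11a and Nfatc1 lay between 4.003 and 24.0 FPKM. Cdh1 ran from 0.302 FPKM in control to 25.1 in IL-4/IL-6. The fusion genes Dcstamp and Ocstamp did not pass 5.23 FPKM in any group mean, and Siglec15 was the scarcest in the IL-4 and IL-13 groups, with 0.684 and 0.551 FPKM.

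**Figure D1:**
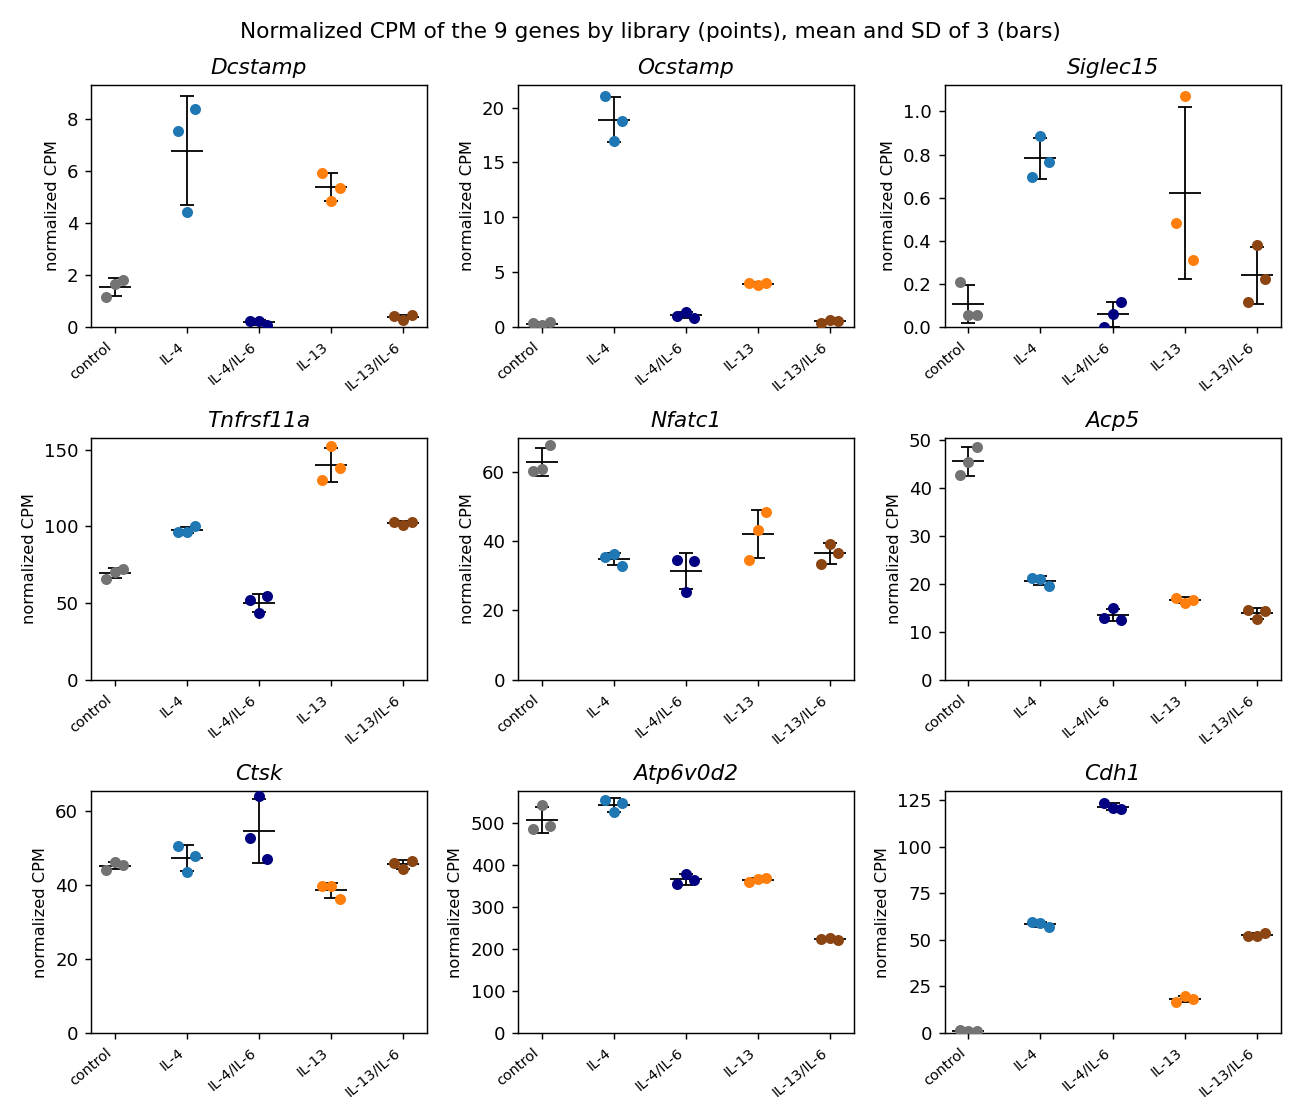
Normalized CPM (y axis, linear, from 0) of each of the 9 genes in the 5 groups (x axis), with 1 point per library and bars for the mean and SD of 3 libraries. Dcstamp stood high with IL-4 or IL-13 alone and near the axis with IL-6 co-added, Ocstamp stood high with IL-4 (18.9 CPM) and much lower with IL-13 (3.92 CPM), and Cdh1 was highest in IL-4/IL-6 (121.4 CPM).

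Co-addition of IL-6 to IL-13 lowered the fusion genes Dcstamp and Ocstamp, the proton pump gene Atp6v0d2 and the RANK gene Tnfrsf11a, and raised Cdh1. Of the 9 genes, 4 fell and 1 rose in IL-13/IL-6 against IL-13 by the quasi-likelihood test of edgeR, at an adjusted p (Benjamini-Hochberg, over 13938 genes) under 0.05, and 4 passed no threshold. Among all genes tested, 13.5% were called lower and 12.1% higher. The median log2 fold change was -0.46 over the 9 genes and 0.01 over all genes. Since the 9 genes may have been chosen with these values in view, the counts and the median describe the set and are not evidence on it. The same 4 genes had lower values when IL-6 was added to IL-4, where 6 of the 9 were past the same threshold in the lower direction and 1 in the higher, beside 18.7% and 20.7% of all genes. That contrast was taken as used in the choice, and nothing is read from that count. Of all calls in IL-4/IL-6 against IL-4, 52.6% were higher, and 39.0% with upper-quartile scaling in place of TMM.

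**Figure D2:**
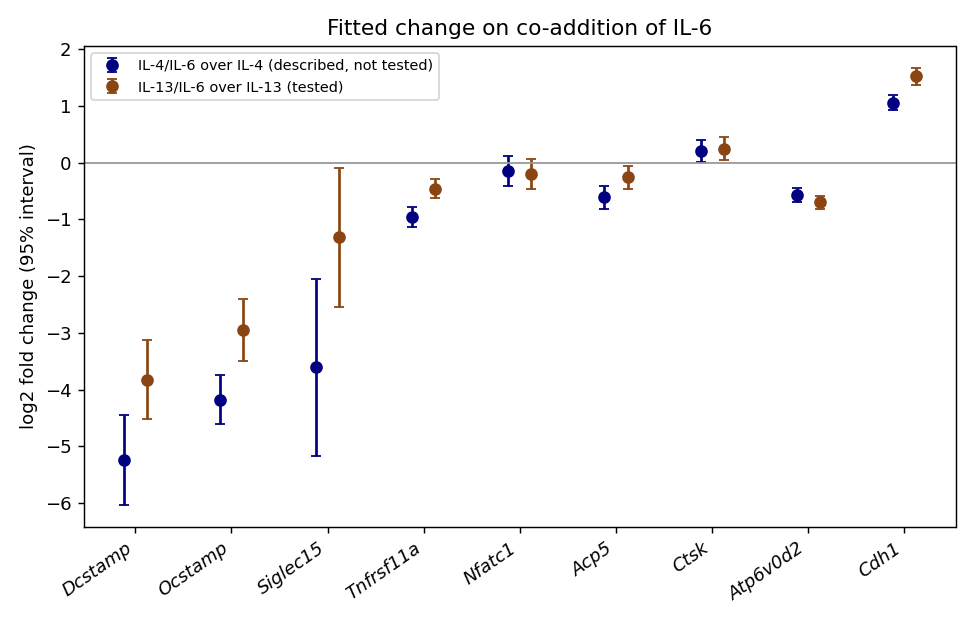
Fitted log2 fold change (y axis) of the 9 genes (x axis) on co-addition of IL-6, to IL-4 (blue, described) and to IL-13 (brown, tested), with 95% intervals from the edgeR fit of 15 libraries. Dcstamp was lowest in both, at -5.24 and -3.83, and Cdh1 was the highest, at 1.06 and 1.52.

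Dcstamp encodes a multipass membrane protein that macrophages and osteoclast precursors need for cell to cell fusion. In normalized CPM, the 3 libraries had 1.15, 1.66 and 1.80 in control, 7.55, 4.43 and 8.40 in IL-4, and 0.227, 0.236 and 0.0576 in IL-4/IL-6. With IL-13, they had 5.94, 4.84 and 5.36, and with IL-13/IL-6 they had 0.405, 0.271 and 0.445. The cytokine alone placed each library above all controls, and with IL-6 each library lay below all controls. The fitted log2 fold change was 2.15 ± 0.26 (standard error) in IL-4 over control and 1.81 ± 0.26 in IL-13 over control. On co-addition of IL-6 it was -5.24 ± 0.37 with IL-4 and -3.83 ± 0.33 with IL-13, and the latter fall was past the threshold (adjusted p = 9.43e-08, edgeR). The raw counts behind the IL-4/IL-6 values were 4, 4 and 1, and those behind IL-13/IL-6 were 7, 5 and 8, so the size of the fall is imprecise. In the order of group means, IL-4 and IL-13 had overlapping libraries and each other neighbor was separate.

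Ocstamp encodes a related multipass protein of fusion, and its mean was the farthest above control with IL-4 as a fold, with a counting interval that overlapped that of Cdh1. Its 3 libraries had 0.313, 0.111 and 0.393 CPM in control, 21.0, 16.9 and 18.8 in IL-4 and 0.964, 1.36 and 0.806 in IL-4/IL-6. In IL-13 they had 3.96, 3.77 and 4.02 CPM, and in IL-13/IL-6 0.347, 0.651 and 0.501. IL-13 libraries thus reached lower values than the IL-4 libraries, at a dose that differed, and those of IL-13/IL-6 overlapped with control. The mean was 69.5-fold above control in IL-4 and 14.4-fold above it in IL-13, from 15 summed control counts, with exact 95% counting intervals of 42.0 to 124.7 and 8.54 to 26.2. Such intervals cover counting error only and not the spread between libraries. The interval of Cdh1 with IL-4 was 34.9 to 56.3. The log2 fold change on co-addition of IL-6 was -4.18 ± 0.20 with IL-4 and -2.95 ± 0.26 with IL-13, and Ocstamp fell in the latter by the test (adjusted p = 1.15e-07, edgeR). The mean of IL-4/IL-6 (1.04 ± 0.283 SD, n = 3) remained 1.91 ± 0.36 on the log2 scale above control, whereas the same log2 fold change of Dcstamp was -3.09.

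Siglec15 encodes a sialic acid-binding receptor that signals through the adaptor DAP12 in osteoclasts. It was close to the limit of detection and passed the filter on low counts only through the IL-4 libraries, with raw counts of 4, 1 and 1 in control, 13, 16 and 14 in IL-4 and 0, 1 and 2 in IL-4/IL-6. In IL-13 the counts were 9, 19 and 6 and in IL-13/IL-6 2, 7 and 4. The libraries of IL-4 and IL-4/IL-6 did not overlap, while those of IL-13 and IL-13/IL-6 did. The mean in IL-4 was 13.5-fold above that in IL-4/IL-6 in normalized CPM, and the ratio of the summed counts, 43 and 3, had an exact 95% counting interval of 4.33 to 68.1, which covers counting error only. Against a floor of 3 counts per library, the difference was at least 4.51-fold. Lower values outside IL-4 follow in part from the filter, so the difference is a description. The fitted log2 fold change was -3.61, and -4.48 without IL-4/IL-6 replicate 3, which held 2 of the 3 counts. In IL-13/IL-6 against IL-13 the log2 fold change was -1.32 (95% interval -2.54 to -0.10, adjusted p = 0.111, edgeR), which did not pass the threshold. Adjacent groups in the order of means overlapped throughout.

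Tnfrsf11a, the RANK gene, encodes the receptor through which RANKL starts osteoclast formation. Its libraries had 65.9, 70.6 and 72.2 CPM in control, 96.4, 96.5 and 100.03 in IL-4 and 52.0, 43.7 and 54.9 in IL-4/IL-6. With IL-13 alone the values were 130.5, 152.2 and 138.2 CPM and in IL-13/IL-6 102.8, 100.7 and 102.8. No group overlapped with its neighbor, in the order IL-13, IL-13/IL-6, IL-4, control and IL-4/IL-6, so that IL-13/IL-6 lay above control and IL-4/IL-6 below it. The log2 fold change on co-addition of IL-6 was -0.46 ± 0.08 with IL-13 (adjusted p = 0.000237, edgeR) and -0.96 ± 0.08 with IL-4, which leaves a difference of 0.50 ± 0.11 between the cytokines, given without a test. Over control, it was 0.49 ± 0.08 in IL-4 and 1.01 ± 0.08 in IL-13.

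The promoter of Tnfrsf11a, a gene at chr1:105780718-105847981 on the plus strand of GRCm38, is shown because the gene moved with each cytokine and against each co-addition of IL-6. The window holds 250 bases before to 50 bases after the start site, at chr1:105780473-105780772, and comes from RefSeq (build GRCm38.p6). None of the 6 motifs searched on both strands was found in it, so it has no capitals. The motifs were TTCNNNNGAA (STAT6), TTCNNNGAA (STAT), TGANTCA (AP-1), GGAAAA (NFAT), CACGTG (MITF and TFE) and GAGGAA (PU.1 core), and of 32851 promoter windows of the same length 6.95%, 8.30%, 7.81%, 23.4%, 7.15% and 28.3% hold them.
Tnfrsf11a: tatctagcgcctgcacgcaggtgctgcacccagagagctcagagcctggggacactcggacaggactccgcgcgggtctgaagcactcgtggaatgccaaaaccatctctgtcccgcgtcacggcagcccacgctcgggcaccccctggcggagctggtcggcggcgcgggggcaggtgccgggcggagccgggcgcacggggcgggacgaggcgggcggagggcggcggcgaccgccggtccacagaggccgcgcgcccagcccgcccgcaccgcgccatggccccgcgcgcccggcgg

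Nfatc1 encodes the transcription factor that directs osteoclast formation, and it was lower with IL-4 or IL-13 than in control. The libraries had 60.3, 60.8 and 67.5 CPM in control, 35.3, 36.3 and 32.9 in IL-4 and 34.6, 25.3 and 34.2 in IL-4/IL-6. Those of IL-13 had 34.5, 43.1 and 48.3 CPM and in IL-13/IL-6 33.4, 39.3 and 36.6. The controls stood above all other libraries, and the 4 treated groups overlapped each with the next. The log2 fold change was -0.85 ± 0.12 in IL-4 over control and -0.58 ± 0.12 in IL-13 over control. On co-addition of IL-6 it was -0.15 ± 0.13 with IL-4 and -0.21 with IL-13 (95% interval -0.47 to 0.06, adjusted p = 0.263, edgeR). Without IL-13 replicate 1, the lowest of its group, the IL-13/IL-6 value was -0.34 and passed the threshold (adjusted p = 0.0478, edgeR). In the annotation an antisense gene overlaps Nfatc1, and whether the counting used strand is not given in the sources used here.

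Acp5 encodes tartrate-resistant acid phosphatase, the enzyme stained as TRAP in osteoclasts, and its level was also below control in all treated groups. The libraries had 42.6, 45.4 and 48.6 CPM in control, 21.2, 21.1 and 19.6 in IL-4 and 12.9, 15.03 and 12.6 in IL-4/IL-6. The IL-13 libraries had 17.1, 16.0 and 16.7 CPM and in IL-13/IL-6 14.6, 12.6 and 14.4. The control mean was 2.204-fold that of IL-4 and 2.74-fold that of IL-13, and only IL-13/IL-6 and IL-4/IL-6, the lowest groups, overlapped as neighbors. The log2 fold change on co-addition of IL-6 was -0.61 ± 0.09 with IL-4. With IL-13 it was -0.26 (95% interval -0.46 to -0.06, adjusted p = 0.0526, edgeR), although the libraries did not overlap. It passed with DESeq2 (adjusted p = 0.0474), with upper-quartile scaling (adjusted p = 0.0269, edgeR) and without IL-13/IL-6 replicate 1 (adjusted p = 0.049964, edgeR). Another gene, 6530413G14Rik, overlaps Acp5 on the opposite strand, so that reads from the overlap cannot be told apart without strand.

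Acp5 lies at chr9:22126727-22135711 on the minus strand, and RefSeq gives it 3 start sites. The window of the start site at chr9:22130549-22130848 (GRCm38.p6, minus strand) is shown because it is the only one of the 5 windows found for the 9 genes that holds the STAT6 letters, which are in capitals at 110 bases before the start. A match of letters is a description and shows no binding, and these data do not say which start site was used.
Acp5: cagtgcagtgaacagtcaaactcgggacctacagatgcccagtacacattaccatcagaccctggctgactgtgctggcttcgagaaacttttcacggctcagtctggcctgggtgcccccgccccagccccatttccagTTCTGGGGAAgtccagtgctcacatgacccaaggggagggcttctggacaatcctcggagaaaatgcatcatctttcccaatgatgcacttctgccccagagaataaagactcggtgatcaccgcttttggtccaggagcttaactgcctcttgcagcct

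The other windows of Acp5 hold GGAAAA at 167 bases before the start in 1 case and no motif in the other. RefSeq windows were matched for 3 of the 9 genes, Acp5, Ctsk and Tnfrsf11a. The window of Ctsk, a gene at chr3:95499256-95509362 on the plus strand, holds GAGGAA on either strand at 233 and 58 bases before the start and GGAAAA on the minus strand at 1 base before it.

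Ctsk encodes cathepsin K, the main collagen-digesting protease of osteoclasts, and was the steadiest of the 9 genes. The libraries had 44.1, 46.1 and 45.3 CPM in control, 50.6, 43.6 and 47.9 in IL-4 and 52.7, 63.9 and 47.1 in IL-4/IL-6. With IL-13 they had 39.7, 39.7 and 36.1 CPM and in IL-13/IL-6 45.8, 44.3 and 46.6. The IL-13 libraries lay below those of all other groups, and the rest overlapped with their neighbors. IL-13/IL-6 was 0.24 above IL-13 on the log2 scale (95% interval 0.04 to 0.44), which missed the threshold (adjusted p = 0.0732, edgeR) and passed it in a fit of these 2 groups alone (adjusted p = 0.0477, edgeR). Over control, the log2 fold change was 0.07 ± 0.09 in IL-4 and -0.23 ± 0.09 in IL-13.

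Atp6v0d2 encodes the d subunit isoform of the vacuolar proton pump that is abundant in osteoclasts and is also needed for their fusion. The libraries had 485.3, 543.9 and 493.7 CPM in control, 556.7, 525.8 and 548.1 in IL-4 and 354.7, 379.3 and 364.2 in IL-4/IL-6. IL-13 alone gave 360.3, 367.3 and 368.7 CPM and in IL-13/IL-6 223.9, 227.5 and 221.5. Control overlapped with IL-4, IL-4/IL-6 overlapped with IL-13, and IL-13/IL-6 lay below every other library. The log2 fold change on co-addition of IL-6 was -0.57 ± 0.06 with IL-4 and -0.70 ± 0.06 with IL-13, and Atp6v0d2 fell in the latter by the test (adjusted p = 4.65e-08, edgeR). In IL-4 over control it was 0.10 ± 0.06 and in IL-13 over control -0.47 ± 0.06.

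Atp6v0d1, the gene of the widely expressed isoform of the same subunit, was chosen for this comparison after its values were seen. Its values lay the other way, with a log2 fold change of 0.31 ± 0.09 in IL-13/IL-6 against IL-13 and 0.57 ± 0.09 in IL-4/IL-6 against IL-4, given without a test. In FPKM, Atp6v0d2 made up 57.6% ± 1.60 (SD, n = 3) of the sum of both genes in control and 67.9% ± 0.740 in IL-4. It made up 49.2% ± 3.55 in IL-4/IL-6, 59.0% ± 2.09 in IL-13 and 41.5% ± 1.55 in IL-13/IL-6. The share was lower in each library with IL-6 than in any library with the same cytokine alone.

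**Figure D3:**
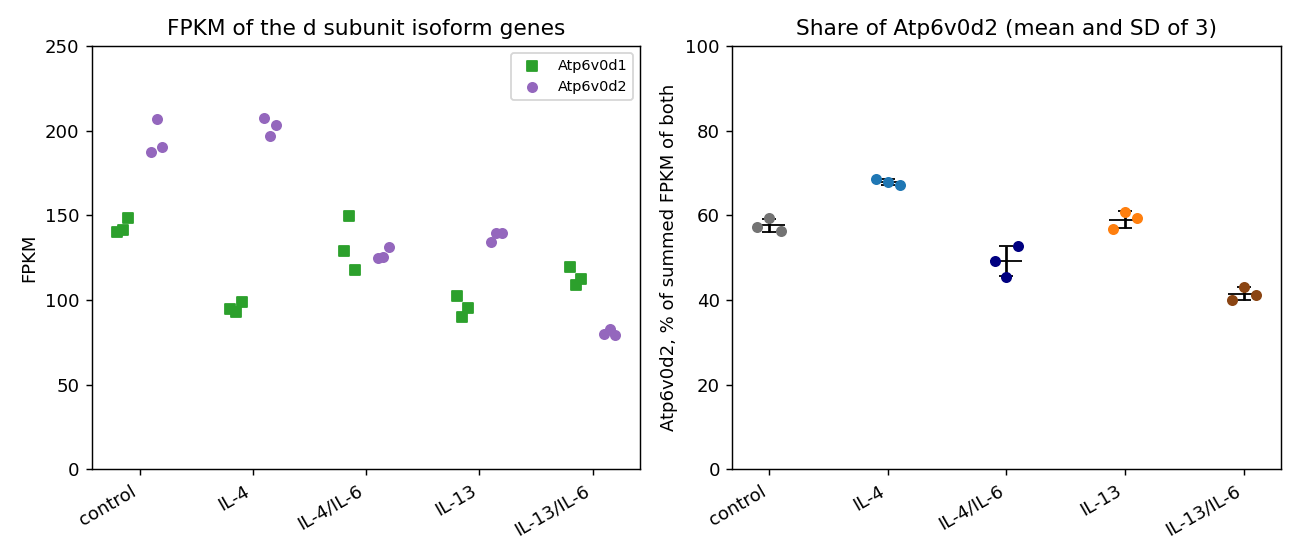
Left, FPKM (y axis, from 0) of Atp6v0d1 (green squares) and Atp6v0d2 (purple circles) in each library of the 5 groups. Right, Atp6v0d2 as a percentage of the summed FPKM of both genes, with the mean and SD of 3 libraries; the share was 67.9% in IL-4 and 41.5% in IL-13/IL-6.

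Cdh1 encodes E-cadherin, a calcium-dependent adhesion molecule of epithelia that macrophages also make after IL-4 and that has a part in their fusion. By group means, it was the only one of the 9 genes that was higher with IL-4 and with IL-13 than in control and higher still with IL-6. The libraries had 1.46, 1.22 and 1.29 CPM in control, 59.5, 58.9 and 56.6 in IL-4 and 123.6, 120.5 and 120.1 in IL-4/IL-6. In IL-13 the values were 16.7, 19.9 and 18.5 CPM and in IL-13/IL-6 52.3, 52.0 and 53.6. No groups overlapped, and the spread within each was small beside the steps between them. The mean was 44.1-fold above control in IL-4 and 13.9-fold above it in IL-13. Co-addition of IL-6 raised it 2.86-fold over IL-13, a log2 fold change of 1.52 ± 0.07 (adjusted p = 4.13e-11, edgeR), and the mean of IL-4/IL-6 was 2.08-fold that of IL-4, a log2 fold change of 1.06 ± 0.07. The difference between these log2 values was 0.46 ± 0.10. None of 6 epithelial markers reached 1 CPM in any library, with a summed level of 0.617 CPM at most, and Krt8 and Krt14 were at 0 in all 15 libraries.

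In the description against control, 5 of the 9 genes were past the threshold in the higher direction with IL-4 and 2 in the lower, beside 32.1% and 35.9% of all genes. With IL-13 the counts were 5 and 4, beside 29% and 31.1% of all genes. These shares of all genes were large, and nothing is read from the counts.

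Beyond the 9 genes, 96 genes of the same pathways were grouped into 7 lists, and 88 of them passed the filter on low counts and were tested by edgeR in each comparison. The lists were drawn up with earlier results of these data known, so their counts are a description and not independent evidence. In IL-13/IL-6 against IL-13, 25 rose and 15 fell (12.1% and 13.5% of all genes), and in IL-4/IL-6 against IL-4 31 rose and 23 fell (20.7% and 18.7% of all genes). Against control, 31 rose and 45 fell with IL-4 (32.1% and 35.9% of all genes), and 27 rose and 42 fell with IL-13 (29% and 31.1% of all genes). By the interaction term, the effect of IL-6 differed between IL-13 and IL-4 for 18 of the 88 list genes, 10 with a more positive and 8 with a more negative value in IL-13, beside 4.42% and 3.22% of all genes. The counts of single lists given next are to be read beside these shares. The median log2 fold change of the tested list genes was 0.04, 0.06, -0.23 and -0.11 in these comparisons, and that of all genes was 0.01, 0.04, -0.05 and -0.02.

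**Figure D4:**
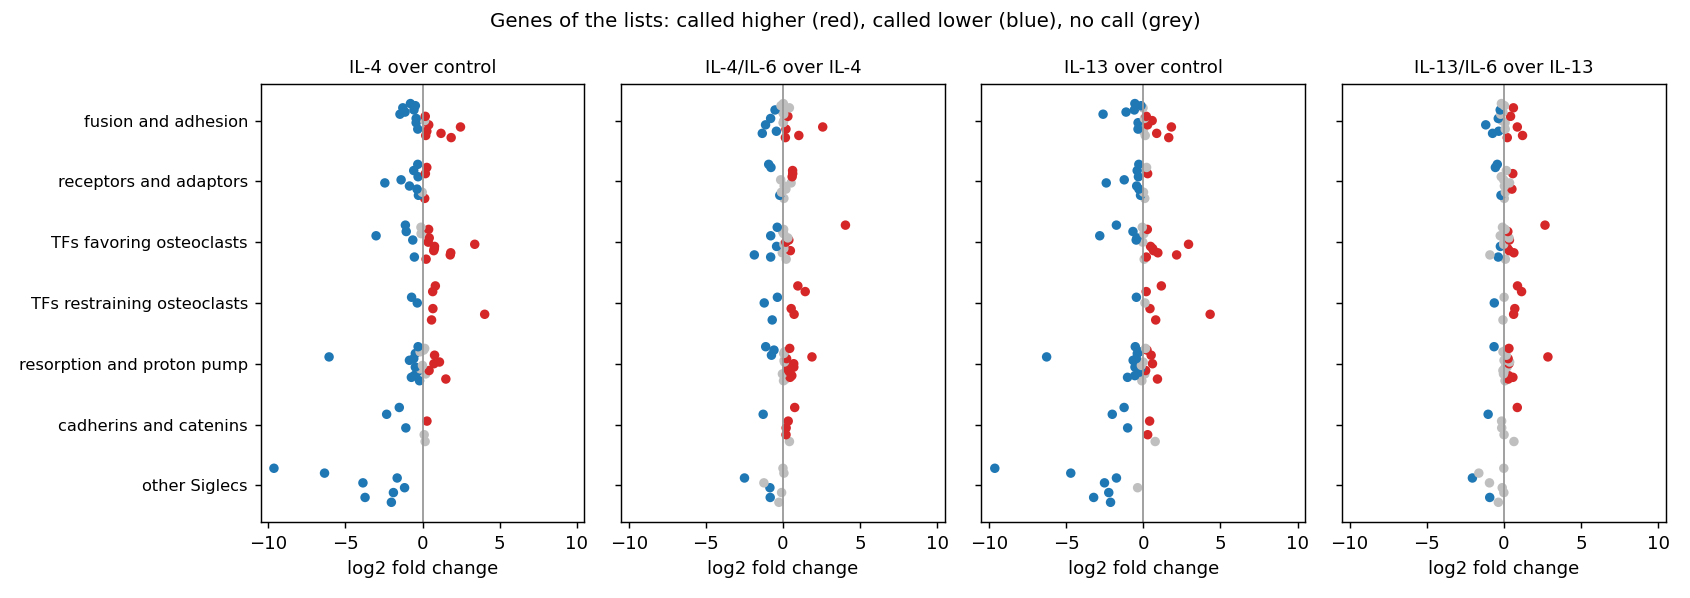
Log2 fold change (x axis) of each tested gene of the 7 lists (y axis) in the 4 comparisons, colored by the edgeR call at an adjusted p under 0.05 (red higher, blue lower, grey no call). The Siglec genes lay to the left with IL-4 and IL-13, while lists were split in both directions on co-addition of IL-6.

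Among 17 tested genes of fusion and adhesion, 5 rose and 5 fell in IL-13/IL-6 against IL-13. The tetraspanin genes Cd9 and Cd81, whose products help to control fusion, went apart, with log2 fold changes of -1.17 ± 0.10 (adjusted p = 1.04e-07, edgeR) and 0.87 ± 0.10 (adjusted p = 2.31e-06, edgeR). Adam9, a membrane metalloprotease gene, rose by 1.21 ± 0.07 and Cd36, a scavenger receptor gene used in IL-4-driven fusion, fell by 0.73. In IL-4/IL-6 against IL-4, 5 rose and 5 fell, with log2 fold changes of 2.58 for Cd81, -1.34 for Cd36, -1.13 for Cd9 and 1.03 for Adam9, all called. With upper-quartile scaling, in the fit of only these groups or without any one IL-4 library, 3 rather than 5 rose. With IL-4 over control 7 rose and 9 fell, and with IL-13 6 rose and 7 fell. Adam8 rose by 1.86 and 1.64, Cd81 rose by 2.46 and 1.82, and the integrin gene Itgb3, whose product osteoclasts and platelets use, had log2 fold changes of -1.46 and -2.61.

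Of 12 tested receptor and adaptor genes, 2 rose and 3 fell in IL-13/IL-6 against IL-13. Trem2 and Tyrobp, which encode a receptor and its adaptor DAP12, had log2 fold changes of -0.55 (adjusted p = 0.000454, edgeR) and -0.42 (adjusted p = 0.00837, edgeR). The TNF receptor gene Tnfrsf1a rose by 0.58 and the adaptor gene Gab2 by 0.52. In IL-4/IL-6 against IL-4, 3 rose and 3 fell, with -0.78 for Trem2, -0.92 for Tyrobp and 0.62 for Traf6, the adaptor of RANK, and 5 rose without IL-4/IL-6 replicate 2. Against control, 3 rose and 8 fell with IL-4, and 1 rose and 8 fell with IL-13, and there 5 rather than 8 fell without control replicate 2 or 3 and 2 rather than 1 rose without IL-13 replicate 2, without the filter or in a fit of those groups alone. The kinase genes Src and Syk fell in both, with log2 fold changes of -2.44 and -1.39 with IL-4 and of -2.41 and -1.24 with IL-13.

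Of 17 transcription factors that favor osteoclast formation, 6 rose and 2 fell in IL-13/IL-6 against IL-13, and 4 rose and 5 fell in IL-4/IL-6 against IL-4. In the former, 1 rather than 2 fell in the fit of these groups alone or without IL-13 replicate 2 or 3 or IL-13/IL-6 replicate 1 or 3. The count of rises there was not stable either. The calls of Relb and Jdp2 were both lost with upper-quartile scaling and without IL-13 replicate 2 or 3 or IL-13/IL-6 replicate 1 or 3. Tfec, a relative of Mitf, had the largest change in the list, from 9.70 to 61.8 CPM on co-addition of IL-6 to IL-13 (log2 fold change 2.67 ± 0.10) and from 15.1 to 250.6 CPM to IL-4 (4.05 ± 0.10). The AP-1 gene Fos fell by 0.36 and 0.80, and Fosl1 fell in IL-4/IL-6 by 1.86. With IL-4 over control 10 rose and 5 fell, and with IL-13 8 rose and 5 fell. Myc rose by 3.38 and 2.93, while Prdm1, a repressor, fell by 3.01 and 2.83.

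Of 7 transcription factors that restrain osteoclast formation, 4 rose and 1 fell in IL-13/IL-6 against IL-13, and 4 rose and 3 fell in IL-4/IL-6 against IL-4. Rbpj, the effector of Notch signaling, rose from 365.5 to 676.1 CPM with IL-13 as base (log2 fold change 0.89 ± 0.08, adjusted p = 3.30e-07, edgeR) and from 290.2 to 566.4 CPM with IL-4 as base (0.96 ± 0.09, adjusted p = 6.42e-08, edgeR), and Id1 rose by 0.64 and 0.72. Id3 fell in IL-4/IL-6 by 1.21. Over control, 5 rose and 2 fell with IL-4, and 5 rose and 1 fell with IL-13, with log2 fold changes of 4.03 and 4.33 for Id1 and of -0.71 and -0.45 for Irf8, an interferon regulatory factor gene. The fall of Id3 with IL-4 (-0.34) was lost without any one IL-4 library, with adjusted p values of 0.0603, 0.0655 and 0.0562 (edgeR).

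Of 21 genes of resorption and the proton pump, 7 rose and 1 fell in IL-13/IL-6 against IL-13, and 11 rose and 3 fell in IL-4/IL-6 against IL-4. Without IL-13/IL-6 replicate 1, 4 rather than 7 rose. The 1 that fell in the former was Tcirg1, which encodes the a subunit isoform of the pump in osteoclasts, with log2 fold changes of -0.63 ± 0.07 (adjusted p = 8.39e-07, edgeR) and -1.12 ± 0.07 (adjusted p = 3.54e-10, edgeR). Mmp14, a membrane collagenase gene, had 105.9 CPM in control, 1.58 with IL-4 and 1.36 with IL-13, and rose from there to 5.84 with IL-4/IL-6 and 9.94 with IL-13/IL-6. Against control, 5 rose and 10 fell with IL-4, and 5 rose and 11 fell with IL-13, and 8 rather than 5 rose in a fit of control and IL-4 alone. Atp6v0a1, which encodes another a subunit isoform, rose by 1.51 with IL-4 and 0.91 with IL-13.

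Of 6 tested genes of the cadherin and catenin list, which include the partners of E-cadherin and also the nectin gene Nectin2, 1 rose and 1 fell in IL-13/IL-6 against IL-13. Jup, which encodes plakoglobin, fell by 1.02 (adjusted p = 0.00878, edgeR) and Nectin2 rose by 0.87 (adjusted p = 2.38e-05, edgeR). The call of Jup was lost without IL-13 replicate 3, at -0.79 (adjusted p = 0.0613, edgeR), and 2 genes fell with upper-quartile scaling or without IL-13 replicate 1. In IL-4/IL-6 against IL-4, 4 rose and 1 fell, but only 1 rose with upper-quartile scaling, in the fit of these groups alone or without IL-4 replicate 2, and 2 rose without the filter on low counts, IL-4 replicate 3 or IL-4/IL-6 replicate 1. The β-catenin gene Ctnnb1 had 729.4 CPM in control, 344.3 with IL-4 and 359.4 with IL-13, with falls of 1.08 and 1.02 on the log2 scale. Cdh2, Cdh3 and Cdh11 did not pass the filter, with at most 7, 1 and 22 counts in a library.

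The mean of Siglec15, which passed the filter on low counts only through the IL-4 libraries, was higher in IL-4 and IL-13 than in control. The other Siglec genes did not follow it, and the contrast is a description. Of 8 tested, all 8 fell with IL-4 and 7 fell with IL-13, but 2 of them, Siglecg and Siglech, passed the filter on low counts only through the control libraries and so had to be lower elsewhere. Cd33 had 113.8 CPM in control, 8.58 with IL-4 and 12.2 with IL-13. Siglech, a gene of plasmacytoid dendritic cells, had 0 counts in the libraries of IL-4 and IL-13 and was at least 33.5-fold and 34.0-fold lower than in control, at a floor of 3 counts per library. These falls went along with the markers of other cells that were highest in control, and the part of such cells was not tested. On co-addition of IL-6, Siglecf and Cd33 fell with IL-13, by 2.04 and 0.91, and Siglecf, Siglec1 and Cd33 fell with IL-4, by 2.50, 0.85 and 0.83.

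The genes most like each of the 9 over the 15 libraries were ranked by Pearson's r of log2 CPM among 12049 tested genes with a mean of at least 1 CPM. The libraries share 5 groups, so r mainly follows the group means and no p is given. For Dcstamp they were Ank (r = 0.968), Mmp12 (0.966) and Nfkbid (0.962). For Ocstamp they were Egr2 (r = 0.989), Il1rl1 (0.979) and Anxa4 (0.963). Egr2, a zinc finger transcription factor gene, had 29.4 CPM in control, 185.6 in IL-4, 49.8 in IL-4/IL-6, 88.7 in IL-13 and 34.6 in IL-13/IL-6, and its group means had the order of those of Ocstamp. For Siglec15 they were Add3 (r = 0.925), Cdca7l (0.916) and Zfp808 (0.912).

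For Tnfrsf11a the most similar genes were Mef2a (r = 0.979), BC005537 (0.977) and Numb (0.976), and for Nfatc1 they were Chd6 (0.989), Firre (0.987) and Cplane1 (0.985). For Acp5 they were P2rx4 (r = 0.985), Stard5 (0.985) and Ap5s1 (0.984), and for Ctsk Polr3c (0.911), Trappc3 (0.907) and Gpr65 (0.902). For Atp6v0d2 they were Fam20c (r = 0.964), Rab19 (0.961) and Abcg1 (0.960). For Cdh1 they were Msx3 (r = 0.999), Adora2b (0.997) and Dhrs9 (0.995). Msx3, a homeobox gene, had 0 CPM in control, 79.5 in IL-4, 384.7 in IL-4/IL-6, 10.7 in IL-13 and 75.0 in IL-13/IL-6. By Pearson's r Cdh1 had the closest match, whereas by Spearman's rho that of Ocstamp with Egr2 (0.971) was above that of Cdh1 with Msx3 (0.943).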

How the data were processed

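BMDM RNAseq libraries of 5 groups, 3 each, were analysed. The authors deposited raw counts per gene, without normalization, for 53465 Ensembl genes, and FPKM values for 26080 of them. The deposited FPKM were these counts per gene length and library total, to a relative difference in length of 7.35e-07. The submitters' processing notes name CASAVA, Bowtie2 2.2.3, HISAT2 2.1.0, TopHat2, DESeq2 and the build GRCm38, without the role of each; the counting tool and its use of strand are not given in the sources used here.

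The counts were analysed with edgeR 4.0.16 in R 4.3.3: filterByExpr (minimum count 10), TMM factors, 1 quasi-likelihood fit of all 15 libraries without covariates, and Benjamini-Hochberg adjustment over 13938 genes with a threshold of 0.05. The standard error was the log2 fold change divided by the square root of F. All 9 genes passed the filter. Normalized CPM used the same factors. Total counts of 17001352 to 18918686 per library limit the precision of genes with few counts. No replicate pair agreed within sampling noise (chi-square per gene of 2.60 to 42.2); IL-4/IL-6 replicate 2 and IL-13 replicate 1 differed most from their groups. Symbols and positions came from GENCODE for GRCm38, and motifs and exact intervals were computed with Python 3.11.15 and SciPy 1.17.1. The analysis was tested on simulated data.

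The members and lists were chosen with earlier results of these data known. List genes named were at most 4 per list and comparison, those with the largest log2 fold changes among genes called with libraries that did not overlap. Genes called by the interaction term were named as well. Repeats of a named gene in another comparison, Atp6v0d1, Relb, Jdp2 and genes with few or no counts were added after their values were seen. Of the genes counted in the lists, 1 is not reported here by name. The 3 genes with the highest Pearson's r were named for each member. Alternatives were DESeq2 1.42.0, upper-quartile factors, no filter on low counts, a fit of the 2 groups compared, a replicate block, each library left out in turn, Spearman's rho and CPM per kilobase.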

Additional observations from a re-analysis of the deposited data

Results flagged for a closer look

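Of the 88 list genes tested, 18 had an effect of IL-6 that differed between IL-13 and IL-4 by the interaction term of the edgeR fit (adjusted p under 0.05), 10 with a more positive and 8 with a more negative log2 value in IL-13, beside 4.42% and 3.22% of all genes; groups of 3 libraries are too small for a search for outlying samples. The IL-6 effect with IL-13 minus that with IL-4 was -1.70 for Cd81 (2.58 with IL-4 and 0.87 with IL-13, adjusted p = 6.76e-07, edgeR) and -1.38 for Tfec (4.05 and 2.67, adjusted p = 4.28e-06, edgeR), which rose with both. Of the genes that fell with both, the difference was 0.61 for Cd36, 0.49 for Tcirg1, 0.60 for Id3, 0.44 for Itgav and 0.44 for Fos. The difference was 0.91 for Mmp9, 0.73 for Slc37a2, 0.64 for Bcl6 and 0.38 for Irf8, which fell with IL-4 as base and were not called with IL-13. It was 0.70 for Fosl2, which rose with IL-13 as base and was not called with IL-4. It was -0.76 for Tec, -0.46 for Traf6, -0.44 for Atp6v1a, -0.42 for Atp6v1b2 and -0.34 for Ctnnb1, which rose with IL-4 as base and were not called with IL-13. The rise of Ctnnb1 (0.21) was lost with upper-quartile scaling, without the filter on low counts, in a fit of the 2 groups, and without IL-4 replicate 1 or 2 or IL-4/IL-6 replicate 1 or 3 (adjusted p of 0.0684 to 0.141, edgeR), and with IL-13 as base Ctnnb1 was called lower with upper-quartile scaling (-0.17) and without IL-13 replicate 1 (-0.20). With IL-13 as base, Tec was called lower with DESeq2, with upper-quartile scaling and without IL-13/IL-6 replicate 3 (-0.17, -0.21 and -0.23), and Slc37a2 was called higher with DESeq2 (0.14). The adjusted p of the differences above, other than those of Cd81 and Tfec, was between 1.21e-05 and 0.0358 (edgeR). The doses of IL-4 and IL-13 differed, so that the cytokine and its dose cannot be told apart.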

How the results depend on the processing

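No fold change of the 9 genes that was called in the main fit or in a setting changed sign between them. Changes of sign between values without a call were not counted. The count of the 9 genes higher in IL-13/IL-6 against IL-13 was 2 instead of 1 in the fit of only the 2 groups compared, where Ctsk was added. In IL-4/IL-6 against IL-4 the count of genes higher was between 1 and 2 when 1 library was left out, and it was 2 without IL-4/IL-6 replicate 3, again with Ctsk (log2 fold change 0.28); the cause was not tested. All 86 other recounts of the 9 genes, and all 88 recounts over the 7 lists pooled, stayed within 1.5 times the main count; counts of single lists moved more, as given with each list. Of 394 recomputed fold changes of the 9 genes, 377 kept their call, 9 gained and 8 lost it; the losses were all of Ctsk in IL-13 over control, and the gains were of Atp6v0d2 in IL-4 over control, Acp5, Nfatc1 and Ctsk.

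With a replicate block, 1 of the 9 genes was higher in IL-13/IL-6 against IL-13 and the log2 fold change of Dcstamp was -3.83 there and -5.22 in IL-4/IL-6 against IL-4; only the call of Ctsk in IL-13 over control (-0.23) changed. Same-numbered libraries of different groups had correlations of their deviations between -0.276 and 0.163, so the numbers do not pair them. Genes under about 20 counts, Siglec15 throughout, Ocstamp in control and Dcstamp and Ocstamp with IL-6, are limited by depth. Siglec15 did not pass the filter in the fits of only IL-13 and control or only IL-13/IL-6 and IL-13. Spearman's rho of the 27 most similar genes was between 0.807 and 0.971, and each differed from its Pearson's r. With normalized CPM per kilobase in place of FPKM, 36 of 45 group levels of the 9 genes moved by less than 1 SD.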
